A study of Mus musculus with 5 samples.

Results

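The genes described here are the Wnt ligands, the Frizzled receptors, the secreted Wnt inhibitors of the Dkk and Sfrp families with Wif1 and Frzb, and 3 genes at the nuclear end of the pathway, Axin2, Lef1 and Tcf7. They were taken by symbol from the array annotation, which gave 42 genes on 57 probes, out of 28786 names on 41174 non-control probes. Of these 42, 19 are Wnt ligands, 10 Frizzled receptors, 10 secreted inhibitors and 3 nuclear or feedback genes. RNA of 5 mouse cell lines was measured on one-colour microarrays, 1 array per line. The 2 induced hepatic progenitor cell (iHPC) arrays are iHep-9F and iHep-10F, the neural progenitor cell (NPC) line NSBAg2 after infection with pMXs retroviruses that carried 9 or 10 transcription factors and no drug-selection marker (called iHPC 9F and iHPC 10F here). Both were put into G418 3 weeks after infection and harvested after 1 week in the drug. The 2 hepatic progenitor cell (HPC) arrays are the lines HB1, from the strain C57BL6J, and HNG2, from STOCK Tg(Nanog-GFP, Puro)1 Yam, each made from fetal liver at E13.5. The single NPC array is uninfected NSBAg2, which was derived from the embryonic stem cell line BAg73C2. That stem cell line has a beta-geo cassette, a fusion that gives G418 resistance, knocked into one of its own genes, Afp, so iHPC and NPC share this allele and only cells that transcribe Afp were kept in iHPC. The labels name no factor, and each group stands for only 1 or 2 lines.

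Wnt proteins are secreted lipid-modified ligands that bind Frizzled receptors at the cell surface. In the canonical branch, receptor engagement stabilises beta-catenin, which enters the nucleus and acts with the TCF and LEF proteins (Lef1 and Tcf7 among them) on target genes such as Axin2, a component of the complex that degrades beta-catenin. Sfrp proteins, Frzb and Wif1 bind the ligands outside the cell, whereas most Dkk proteins block the co-receptors. In the fetal liver this pathway is known for its part in hepatoblast growth and biliary fate, and in the neural tube for progenitor growth and dorsal patterning.

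Levels below are log2 signals after subtracting that array's 75th percentile, and they compare arrays for 1 gene, not genes with each other. A signal is called well above background as the scanner software marked it. Between 58.9% and 65.6% of non-control spots were so marked on each array, and no spot was saturated. Of the 42 genes, 35 were tested because some group had the probe well above background on each of its arrays. The other 7 were Dkk4, Sfrp2, Wnt10b, Wnt2b, Wnt3, Wnt3a and Wnt8a, of which Dkk4, Wnt2b, Wnt3 and Wnt3a were well above background on no array. Of the tested genes 20 were well above background on all arrays, and 8 passed through a single group, 2 through iHPC (Wif1, Wnt2), 2 through HPC (Fzd10, Wnt7a) and 4 through NPC (Axin2, Wnt16, Wnt5a, Wnt8b). Such a gene had to differ between groups, so its call is no independent evidence of a difference. The hepatic markers fixed for this work were well above background for 10 of 10 genes on each iHPC and HPC array and for 4 of 10 in NPC, where Alb, Afp, Ttr, Hnf4a, Krt8 and Krt19 were not. Of 10 neural markers, 7 were well above background on each iHPC array, 7 or 8 on the HPC arrays and 8 in NPC, where Olig2 and Hes5 were not. Of 10 mesenchymal markers, 7 and 8 were well above background in iHPC, 3 and 8 in HPC and 9 in NPC. Their summed signal was 3.85 and 3.75 times the array's 75th percentile in iHPC, 0.197 and 2.41 times in HPC and 198 times in NPC. Genes that are high in NPC below therefore move with these mesenchymal markers, and their part in those differences was not tested. Among haematopoietic markers, Itgam was well above background on no array. Ptprc, the common leukocyte antigen, was at -3.29 and -2.84 in iHPC, -8.12 and -8.63 in HPC and -7.52 in NPC, well above background in iHPC only. Limma called it against both HPC (at least 9.49-fold, adjusted p = 0.0193) and NPC (at least 5.78-fold, adjusted p = 0.0301). Because Ptprc passed the background filter through iHPC alone, these calls are no independent evidence of a difference. Of 5 endothelial markers, 1 was well above background on each iHPC array, 2 in HB1, 0 in HNG2 and 1 in NPC, with summed signals of 0.105 and 0.152 in iHPC, 0.0725 and 0.0171 in HPC and 0.0522 in NPC, and Pecam1, Cdh5 and Emcn were well above background on no array. Kdr, a VEGF receptor, was at -3.76 and -3.13 in iHPC, -5.18 and -7.75 in HPC and -7.02 in NPC, and no comparison of it passed. In bulk RNA, fewer cells of a type and less RNA per cell cannot be told apart.

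Relative to NPC, the induced cells had lower Frzb, Lef1, Wnt5b and Wnt8b, with 4 genes lower and 0 higher among the 35 tested (limma adjusted p under 0.05). Over all 19310 genes tested, 5.64% were called in this comparison, 2.8% higher and 2.85% lower. At an unadjusted p under 0.05 the number of these genes was 19 of 35, beside 24.4% of all genes, and their median log2 difference was -0.45, against 0.03 over all genes. Both iHPC arrays lay below NPC for 20 of the 35 genes and above it for 13. This was not counted over all genes, so it cannot be read as particular to these genes. Axin2, Wnt16, Wnt5a and Wnt8b passed the background filter through NPC alone, and Wif1 and Wnt2 through iHPC alone, which favours their side. One scan day was shared by iHPC and NPC, while HB1 and HNG2 had others, and within that day alone 22 of the 35 genes were called, 6 higher and 16 lower, against 35.0% of all genes. That fit takes its spread from the iHPC pair alone and assumes that NPC varies as little. Without iHPC 9F or iHPC 10F the calls were lost, as they were over all genes. The log2 differences were -3.40 and -4.15 for Frzb, -5.58 and -5.29 for Lef1, -2.20 and -2.33 for Wnt5b, and -3.58 and -4.07 for Wnt8b. Leaving out HB1 or HNG2 cannot change these differences, and it gives the same fit as the shared scan day alone.

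Relative to HPC, the induced cells had higher Frzb and Wif1 and lower Fzd10 and Wnt10a. These 4 of 35 genes compare with 5.43% called over all genes, 3.55% higher and 1.88% lower. The median log2 difference was 0.45 for the 35 genes and 0.05 for all genes. HPC relative to NPC had 12 of 35 genes called, with Wnt10a and Fzd10 higher and Axin2, Dkk1, Dkk3, Frzb, Lef1, Tcf7, Wnt16, Wnt5a, Wnt5b and Wnt8b lower. Over all genes 15.7% were called there, 6.68% higher and 8.97% lower, and the median log2 difference was -0.86 for the 35 genes and -0.03 for all genes. These medians include signals not well above background. With such signals set to the lowest one well above background on their array, the medians of the 35 genes were -0.45 for iHPC against NPC, 0.45 for iHPC against HPC and -0.71 for HPC against NPC. No HPC array shares a scan day or slide with another group, so scan day and cell type cannot be told apart in these comparisons. Without iHPC 9F or iHPC 10F the calls were lost in both comparisons, as they were over all genes. For iHPC against HPC the log2 differences were 4.08 and 3.33 for Frzb and 6.18 and 6.12 for Wif1. Those of Fzd10 were -3.80 and -4.31, and those of Wnt10a -7.54 and -6.32. The differences for HPC against NPC cannot change. Without HB1 16 genes were called for iHPC against HPC and without HNG2 17, beside 36.2% and 36.1% of all genes, and for HPC against NPC 23 in each case, beside 49.4% and 50.6% of all genes. In all, 13 of the 35 genes were called in some comparison, of which 6 had passed the background filter through 1 group only. Calls in any comparison were not counted over all genes, so the 13 cannot be read as particular to these genes. The 3 comparisons share arrays, so their calls are not independent of each other.

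**Figure D1:**
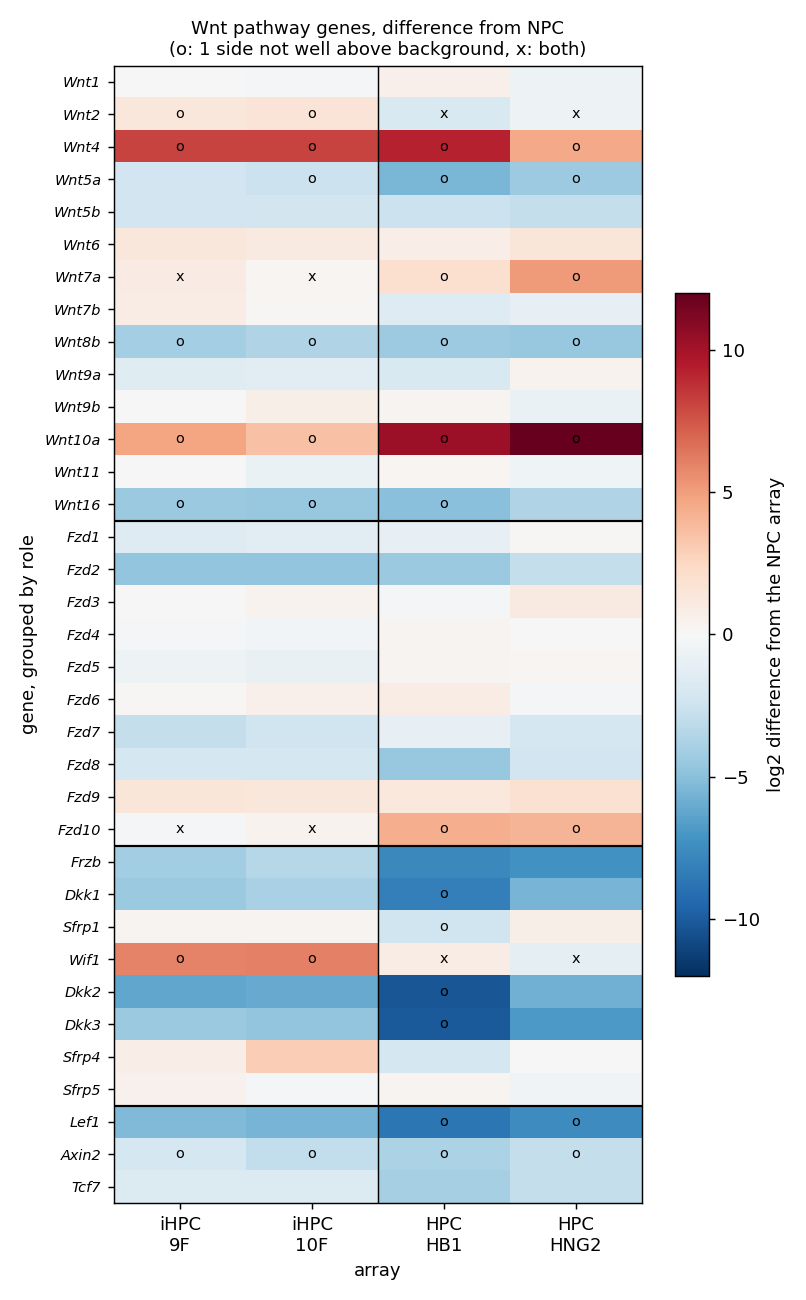
Heat map of 35 tested Wnt pathway genes (rows, in blocks of ligands, receptors, inhibitors and nuclear or feedback genes) by array (columns), coloured by the log2 difference from the NPC array. An o marks a difference in which 1 of the 2 signals was not well above background and an x one in which both were not. Wnt4 and Wnt10a are red on all 4 arrays, Wif1 is deep red on the 2 iHPC arrays, and Frzb, the Dkk genes and Lef1 are blue on all 4.

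**Figure D2:**
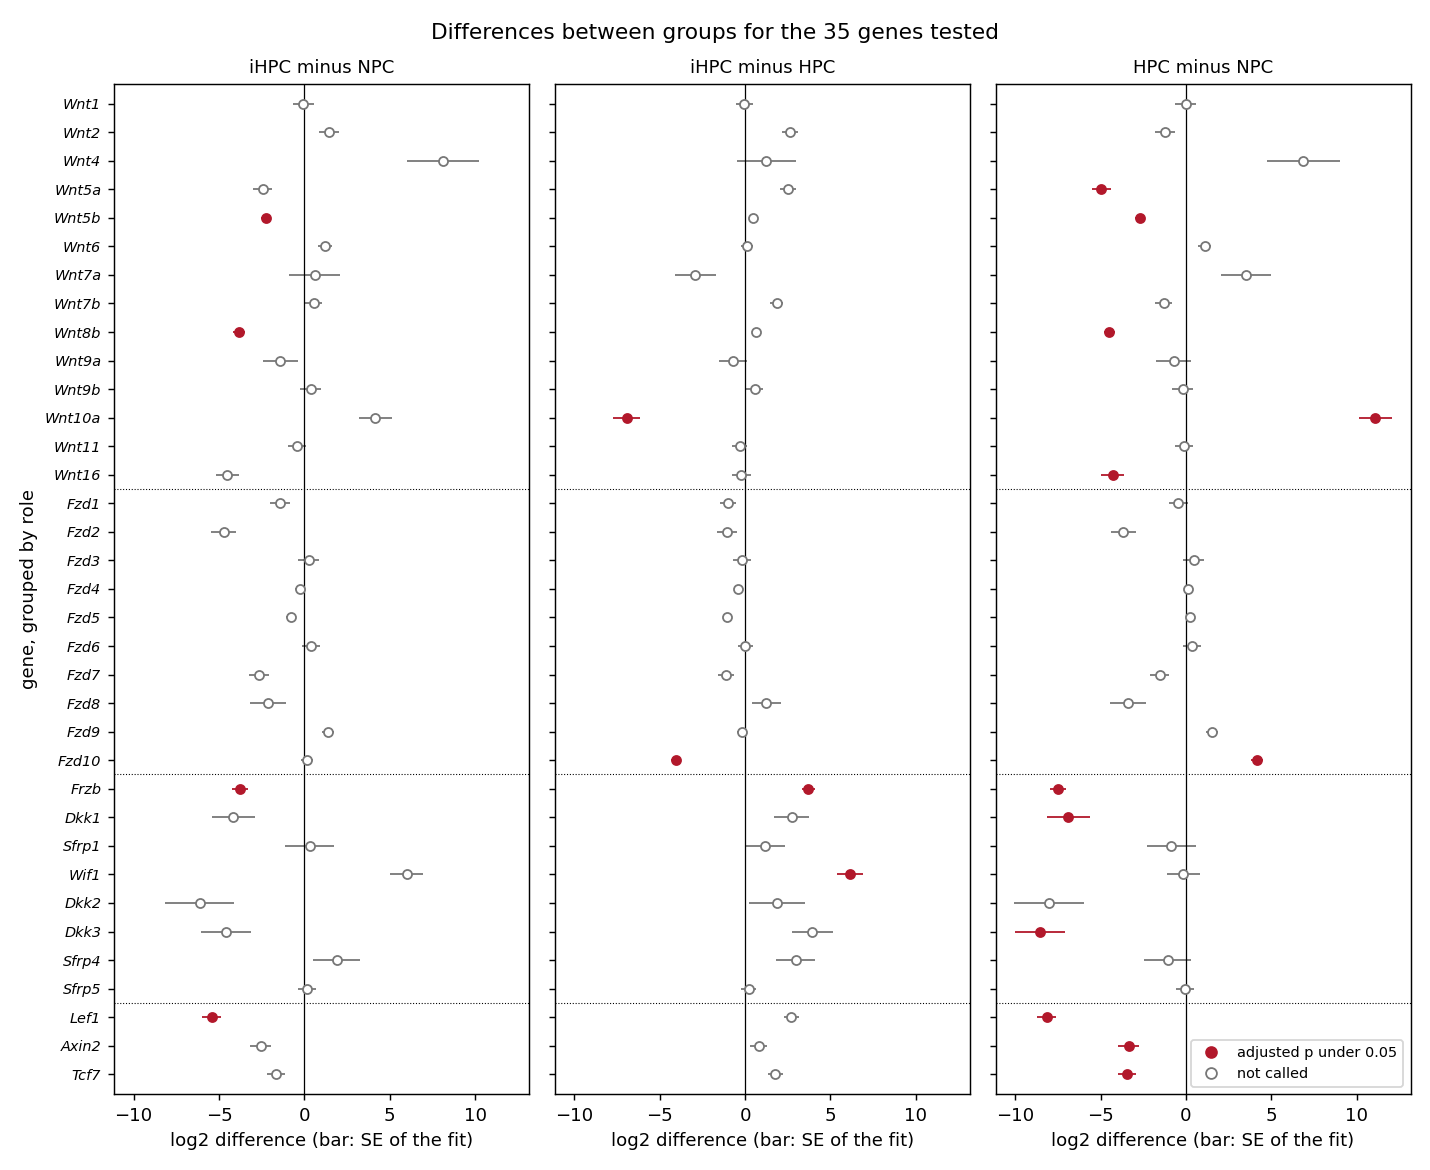
Log2 differences between groups for the 35 genes in the 3 comparisons (horizontal axes), with bars for the standard error of the limma fit. Filled red points passed an adjusted p of 0.05: 4 genes for iHPC minus NPC, 4 for iHPC minus HPC and 12 for HPC minus NPC.

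The sequence before the transcription start of 5 called genes is given here so that the TCF/LEF recognition letters can be seen in place. Each is the 250 bases upstream of a RefSeq start in build GRCm38.p6, on the gene's own strand. Capitals mark CTTTGA or its reverse complement TCAAAG, the core letters bound by TCF and LEF proteins. The regions are chr3:131110047-131110296 on the plus strand for Lef1, chr2:80447397-80447646 on the minus strand for Frzb, chr19:30549497-30549746 on the minus strand for Dkk1, chr10:121033754-121034003 on the plus strand for Wif1 and chr5:128600856-128601105 on the plus strand for Fzd10.
Lef1: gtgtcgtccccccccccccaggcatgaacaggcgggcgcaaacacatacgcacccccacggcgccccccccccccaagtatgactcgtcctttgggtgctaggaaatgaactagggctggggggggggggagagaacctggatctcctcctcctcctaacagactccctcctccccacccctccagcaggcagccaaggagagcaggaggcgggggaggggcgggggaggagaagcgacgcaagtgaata
Frzb: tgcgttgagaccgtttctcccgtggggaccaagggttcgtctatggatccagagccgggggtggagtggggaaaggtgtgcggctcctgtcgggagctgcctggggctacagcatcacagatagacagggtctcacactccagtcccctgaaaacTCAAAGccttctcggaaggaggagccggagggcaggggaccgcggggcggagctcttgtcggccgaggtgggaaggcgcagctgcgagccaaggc
Dkk1: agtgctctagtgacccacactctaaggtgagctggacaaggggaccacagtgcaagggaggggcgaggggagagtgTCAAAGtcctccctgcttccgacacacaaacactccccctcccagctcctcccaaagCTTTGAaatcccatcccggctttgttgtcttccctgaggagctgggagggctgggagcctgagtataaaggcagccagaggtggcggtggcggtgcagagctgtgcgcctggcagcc
Wif1: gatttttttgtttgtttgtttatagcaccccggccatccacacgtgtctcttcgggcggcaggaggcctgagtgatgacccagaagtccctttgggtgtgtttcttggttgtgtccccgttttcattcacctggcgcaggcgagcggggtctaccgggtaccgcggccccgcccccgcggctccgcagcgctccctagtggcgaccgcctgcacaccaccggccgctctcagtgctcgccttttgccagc
Fzd10: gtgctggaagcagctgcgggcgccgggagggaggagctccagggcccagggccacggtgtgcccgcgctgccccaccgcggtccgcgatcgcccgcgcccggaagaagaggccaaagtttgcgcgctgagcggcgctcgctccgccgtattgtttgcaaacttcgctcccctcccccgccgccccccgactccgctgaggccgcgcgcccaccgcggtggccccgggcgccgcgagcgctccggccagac
Frzb held 1 match, 95 bases before its start, and Dkk1 held 2, at 174 and 117 bases. This Lef1 start held none, while another annotated Lef1 start downstream held 2, and Wif1 and Fzd10 held none. Searched on both strands, CTTTGA occurred in 6 of 37 promoters of 30 of these genes (Dkk1, Frzb, Fzd1, Lef1, Wnt11 and Wnt5b) and in 13.8% of 32851 RefSeq promoters. The longer CTTTGAT, which contains CTTTGA, occurred in 2 of 37 (Wnt11 and Wnt5b) and in 3.21% of all. The letters CAAAGTCCA, bound by the liver factor HNF4 and sharing CAAAG with the reverse complement TCAAAG, occurred in 0 of 37 and in 0.384% of all. A match is a run of letters and not a shown binding site.

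Among the ligands, the fetal liver lines stood apart through Wnt10a, a canonical ligand known from skin appendages and teeth. Wnt10a was at -1.94 in iHPC 9F and -3.16 in iHPC 10F, at 3.56 in HB1 and 5.20 in HNG2, and at -6.71 in NPC, where it was not well above background. The 3 groups did not overlap. It was lower in iHPC than in HPC by -6.93 ± 0.78 (log2 difference ± SE, a 122-fold difference, limma adjusted p = 0.037) and higher in HPC than in NPC by at least 1006-fold (adjusted p = 0.0154). Against NPC it was at least 8.25-fold higher in iHPC, a difference that did not pass (adjusted p = 0.111). "At least" marks a bound, taken against the lowest signal well above background wherever 1 group lacked such a signal for the gene. Wnt6, a canonical ligand of epithelia whose probe lies 19.2 kb from that of Wnt10a on chromosome 1 (array coordinates, build mm7), was at -2.01 and -2.26 in iHPC, -2.58 and -1.91 in HPC and -3.35 in NPC. On the probe used, the iHPC and HPC arrays overlapped for Wnt6, and no comparison passed. A second Wnt6 probe was at -2.84 and -3.11 in iHPC and -2.62 and -1.91 in HPC, without overlap. It read -6.05 in NPC, its only signal not well above background. Its differences from NPC were 3.07 for iHPC and 3.79 for HPC, against 1.21 and 1.10 on the probe used. The size of the second probe's differences is uncertain because of that NPC signal.

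Wnt4, a ligand known from kidney and gonad development, was not called but had group means over 3 apart. Its level was 1.10 in iHPC 9F and 1.13 in iHPC 10F, 2.20 in HB1 and -2.46 in HNG2, and -7.01 in NPC, where it was not well above background. The 2 iHPC arrays lay between the 2 HPC lines, and all 4 lay above NPC. Wnt4 was at least 105-fold higher in iHPC than in NPC (adjusted p = 0.137) and at least 44.2-fold higher in HPC (adjusted p = 0.113), neither of which passed. HB1 and HNG2 differed by 4.65 in Wnt4, and HB1 was the higher. Within the shared scan day the iHPC difference had an adjusted p of 0.00438, and over its 14 alternatives the adjusted p ran from 0.00438 to 0.434.

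The ligands that fell relative to NPC were Wnt5b and Wnt8b in the induced cells, and those 2 with Wnt5a and Wnt16 in HPC. Wnt5b and Wnt5a are mostly known as non-canonical ligands. Wnt5b was at -3.35 and -3.22 in iHPC, -3.63 and -3.84 in HPC and -1.02 in NPC, well above background on every array. It fell by 2.26 ± 0.25 (SE) on the log2 scale in iHPC relative to NPC, a 4.79-fold difference (adjusted p = 0.0362), and by 2.72 ± 0.25 in HPC, a 6.57-fold difference (adjusted p = 0.0169). The 2 iHPC arrays were above both HPC arrays, by 0.45 on average, which did not pass (adjusted p = 0.253). Its second probe, not well above background in iHPC or HPC, gave differences of the same sign.

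Wnt5a had -4.83 in iHPC 9F and -5.03 in iHPC 10F, the second not well above background, against -8.00 and -6.88 in HPC, neither well above background, and -2.49 in NPC. The iHPC arrays lay between those of HPC and NPC, with no overlap. Wnt5a fell at least 14.1-fold in HPC relative to NPC (adjusted p = 0.0223), and its iHPC difference of -2.44 ± 0.57 did not pass (adjusted p = 0.112). Wnt8b, a canonical ligand of the developing forebrain, was at -8.00 and -7.50 in iHPC, -8.31 and -8.50 in HPC and -3.92 in NPC, the only array on which it was well above background. It fell at least 2.85-fold in iHPC (adjusted p = 0.0301) and at least 5.23-fold in HPC (adjusted p = 0.0132). Wnt16, a ligand known from bone, was at -6.52 and -6.65 in iHPC, -7.08 and -5.65 in HPC and -2.08 in NPC, and of the first 4 arrays only HNG2 was well above background. It was at least 13.4-fold lower in HPC than in NPC, with HB1 set to its lowest signal well above background (adjusted p = 0.039 on the values as measured), and at least 10.2-fold lower in iHPC without passing (adjusted p = 0.0576).

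The other tested ligands had no call. Wnt7a, a ligand of neural and epithelial tissues, was at -6.38 and -7.12 in iHPC, -5.41 in HB1, -2.27 in HNG2 and -7.35 in NPC, and well above background in HPC only. Its 2 HPC values lay 3.14 apart, and it was at least 3.02-fold lower in iHPC than in HPC without passing (adjusted p = 0.23). Wnt2, a ligand known from liver endothelium and lung, was well above background in iHPC only, at -5.02 and -4.83, with -8.16 and -7.00 in HPC and -6.37 in NPC (adjusted p = 0.0717 against HPC and 0.247 against NPC). It too moves with Ptprc and Kdr, whose part was not tested. Wnt7b was at -0.09 and -0.86 in iHPC, above the -2.61 and -2.05 of HPC and the -1.02 of NPC, and its difference of 1.85 ± 0.40 from HPC did not pass (adjusted p = 0.0933). Wnt1, Wnt9a, Wnt9b and Wnt11 were well above background on every array, with differences between group means of 1.42 or less in size. For Wnt9a, HNG2 exceeded HB1 by 2.19.

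Of the Frizzled receptors, limma called 0 of 10 for iHPC against NPC and 1 of 10 in each of the other comparisons. Over all genes, 5.64%, 5.43% and 15.7% were called for iHPC against NPC, iHPC against HPC and HPC against NPC. At an unadjusted p under 0.05 (limma), 4 of 10 receptors stood for iHPC against NPC, beside 24.4% of all genes. All 10 were tested. The second probes of Fzd2, Fzd3, Fzd5, Fzd7 and Fzd8 were each not well above background on at least 1 array. On the probes used, 9 receptors were well above background on all 5 arrays. The exception was Fzd10, a receptor known from neural tube and limb, which was at -7.96 and -7.46 in iHPC, -3.50 in HB1, -3.81 in HNG2 and -7.84 in NPC. Only the 2 fetal liver lines were well above background. Fzd10 was at least 3.43-fold lower in iHPC than in HPC (adjusted p = 0.0219) and higher in HPC than in NPC by at least 3.84-fold (adjusted p = 0.0149). A second Fzd10 probe showed the same pattern, with -7.80 and -7.29 in iHPC, -5.35 in HB1, -5.93 in HNG2 and -7.60 in NPC, again well above background in HPC only.

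Fzd2, Fzd7 and Fzd8 tended the other way, with NPC highest on the probes used. Fzd2 was at -0.39 in iHPC 9F and -0.38 in iHPC 10F, -0.08 in HB1 and 1.45 in HNG2, and 4.34 in NPC. All 4 hepatic arrays lay below NPC, by -4.73 ± 0.73 (SE) for iHPC (26.5-fold, adjusted p = 0.0581) and -3.66 ± 0.73 for HPC (12.6-fold, adjusted p = 0.0548), and neither passed. Over 15 alternatives the iHPC difference ran from -4.91 to -4.57, and whether it was called depended on the alternative. A second Fzd2 probe was at -7.66 and -7.34 in iHPC, neither well above background, -4.11 and -5.33 in HPC and -2.42 in NPC. Fzd7 was at -3.59 and -3.09 in iHPC, -1.72 and -2.78 in HPC and -0.71 in NPC (adjusted p = 0.102 for iHPC against NPC). Fzd8 was at -3.09 and -3.10 in iHPC, -5.45 and -3.20 in HPC and -0.95 in NPC, and its HPC difference of -3.38 ± 1.04 did not pass (adjusted p = 0.114). Fzd9, at -2.86 and -2.97 in iHPC and -3.06 and -2.46 in HPC, was above the -4.30 of NPC on all 4 arrays, without a call (adjusted p = 0.135 for iHPC and 0.0713 for HPC).

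The remaining receptors were close to even. Fzd4, the receptor also used by the ligand norrin, spanned -0.73 to -0.72 in iHPC, -0.48 to -0.12 in HPC and -0.45 in NPC. Fzd1, Fzd3, Fzd5 and Fzd6 had differences between group means of 1.42 or less in size, none of which passed. For Fzd5 the iHPC values of -4.69 and -4.98 lay below the HPC values of -3.75 and -3.82 and the NPC value of -4.05, with an adjusted p of 0.0871 against HPC.

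Of the 8 secreted inhibitors tested, limma called 1 for iHPC against NPC, 2 for iHPC against HPC and 3 for HPC against NPC. Over all genes 5.64%, 5.43% and 15.7% were called in these comparisons. The inhibitors called were Frzb, Wif1, Dkk1 and Dkk3. Frzb, a secreted Frizzled-related protein that binds Wnt ligands, was well above background on every array, at -2.27 in iHPC 9F and -1.53 in iHPC 10F, -5.83 in HB1 and -5.39 in HNG2, and 1.88 in NPC. The induced cells lay between the other groups with no overlap. Frzb fell by 3.78 ± 0.45 (SE) on the log2 scale in iHPC relative to NPC (13.7-fold, adjusted p = 0.0401), rose by 3.71 ± 0.37 relative to HPC (13.1-fold, adjusted p = 0.0321), and fell by 7.48 ± 0.45 in HPC relative to NPC (179-fold, adjusted p = 0.0114). It was the only one of the 35 genes called in all 3 comparisons.

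Wif1, Wnt inhibitory factor 1, was well above background in the induced cells only. Its levels were -1.29 in iHPC 9F and -1.23 in iHPC 10F, against -6.39 and -8.44 in HPC and -7.25 in NPC. No HPC or NPC array came near the iHPC pair, and that pair differed by 0.06. Wif1 was at least 33.0-fold higher in iHPC than in HPC (adjusted p = 0.0449), and at least 20.1-fold higher than in NPC, which did not pass (adjusted p = 0.0614). Over 14 alternatives its log2 difference from NPC ran from 2.14 to 6.05, and whether it was called depended on the alternative. The leukocyte marker Ptprc was likewise well above background in iHPC only and Kdr was highest there, and the part of such cells in the Wif1 difference was not tested.

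Dkk1, Dkk2 and Dkk3 were highest in NPC. Dkk1, which blocks the co-receptor Lrp6, was at -4.46 and -3.85 in iHPC, -8.20 in HB1 and -5.56 in HNG2, and 0.00 in NPC, with HB1 not well above background. All 3 groups were apart. Dkk1 fell at least 54.7-fold in HPC relative to NPC, with HB1 set to its lowest signal well above background (adjusted p = 0.0472 on the values as measured), and its iHPC difference of -4.15 ± 1.25 did not pass (adjusted p = 0.169). A second Dkk1 probe was well above background in NPC only and gave differences of the same sign from NPC. Dkk3, a divergent member of the family, was at -1.87 and -2.22 in iHPC, -7.56 in HB1 and -4.39 in HNG2, and 2.54 in NPC, with HB1 not well above background. On the same basis it fell at least 213-fold in HPC relative to NPC (adjusted p = 0.0434), with an iHPC difference of -4.59 ± 1.46 (adjusted p = 0.183). Dkk2, which can act as agonist or antagonist depending on context, was at -4.24 and -4.06 in iHPC, -8.25 in HB1 and -3.81 in HNG2, and 1.99 in NPC. HNG2 lay above both iHPC arrays and HB1 below them, and no Dkk2 comparison passed (adjusted p = 0.191 for iHPC against NPC and 0.0818 for HPC against NPC). For all of these Dkk genes the HPC means rest on an HB1 signal that was not well above background.

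The Sfrp genes, secreted Frizzled-related proteins, had no call. Sfrp1 was at -4.13 and -4.08 in iHPC, -6.83 in HB1 and -3.72 in HNG2, and -4.42 in NPC, so that HB1, not well above background, stood below the rest. Sfrp4 was at -2.72 in iHPC 9F and -0.62 in iHPC 10F, -5.70 in HB1 and -3.56 in HNG2, and -3.56 in NPC. The 2 iHPC values were above the other 3, by 2.96 ± 1.13 over HPC (adjusted p = 0.205), and Sfrp4 was the only tested gene here whose iHPC values lay more than 2 apart. Sfrp5 ran from -4.74 to -4.02 in iHPC, from -4.98 to -4.20 in HPC and at -4.53 in NPC, with the groups overlapping.

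Lef1, Tcf7 and Axin2, whose transcripts are commonly read as a sign of canonical signalling, all had their highest level in NPC. Axin2 passed the background filter through NPC alone. The beta-catenin targets listed below did not share this direction as a set, with median log2 differences from NPC of 0.37 in iHPC and 1.02 in HPC. Canonical signalling itself was not tested. Lef1 was at -4.80 in iHPC 9F and -5.10 in iHPC 10F, -8.22 in HB1 and -7.11 in HNG2, neither well above background, and 0.48 in NPC. The groups did not overlap. Lef1 fell by 5.43 ± 0.57 (SE) on the log2 scale in iHPC relative to NPC (43.2-fold, adjusted p = 0.0339) and at least 111-fold in HPC relative to NPC (adjusted p = 0.0129). It was at least 2.56-fold higher in iHPC than in HPC without passing (adjusted p = 0.0674). A second Lef1 probe, well above background in NPC only, at chr3:131041424-131059585 in mm7, gave differences of the same sign, while the third, at chr3:130953629-130953688, was not well above background on any array. The probe used lies at chr3:131060609-131060668.

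Tcf7, another nuclear partner of beta-catenin, was well above background throughout, at -2.22 and -2.18 in iHPC, -4.52 and -3.45 in HPC and -0.55 in NPC. The iHPC arrays again lay between those of HPC and NPC. Tcf7 fell by 3.43 ± 0.54 (SE) on the log2 scale in HPC relative to NPC (10.8-fold, adjusted p = 0.0368), and its difference of -1.65 ± 0.54 in iHPC did not pass (adjusted p = 0.186). Its second probe, well above background on every array, gave -1.70 for iHPC minus NPC and -2.70 for HPC minus NPC. Axin2, the feedback inhibitor, was at -6.45 and -7.29 in iHPC and -8.11 and -7.21 in HPC, none well above background, and at -4.31 in NPC. The iHPC and HPC arrays overlapped. Axin2 fell at least 4.0-fold in HPC relative to NPC (adjusted p = 0.046) and was at least 2.18-fold lower in iHPC without passing (adjusted p = 0.113).

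**Figure D3:**
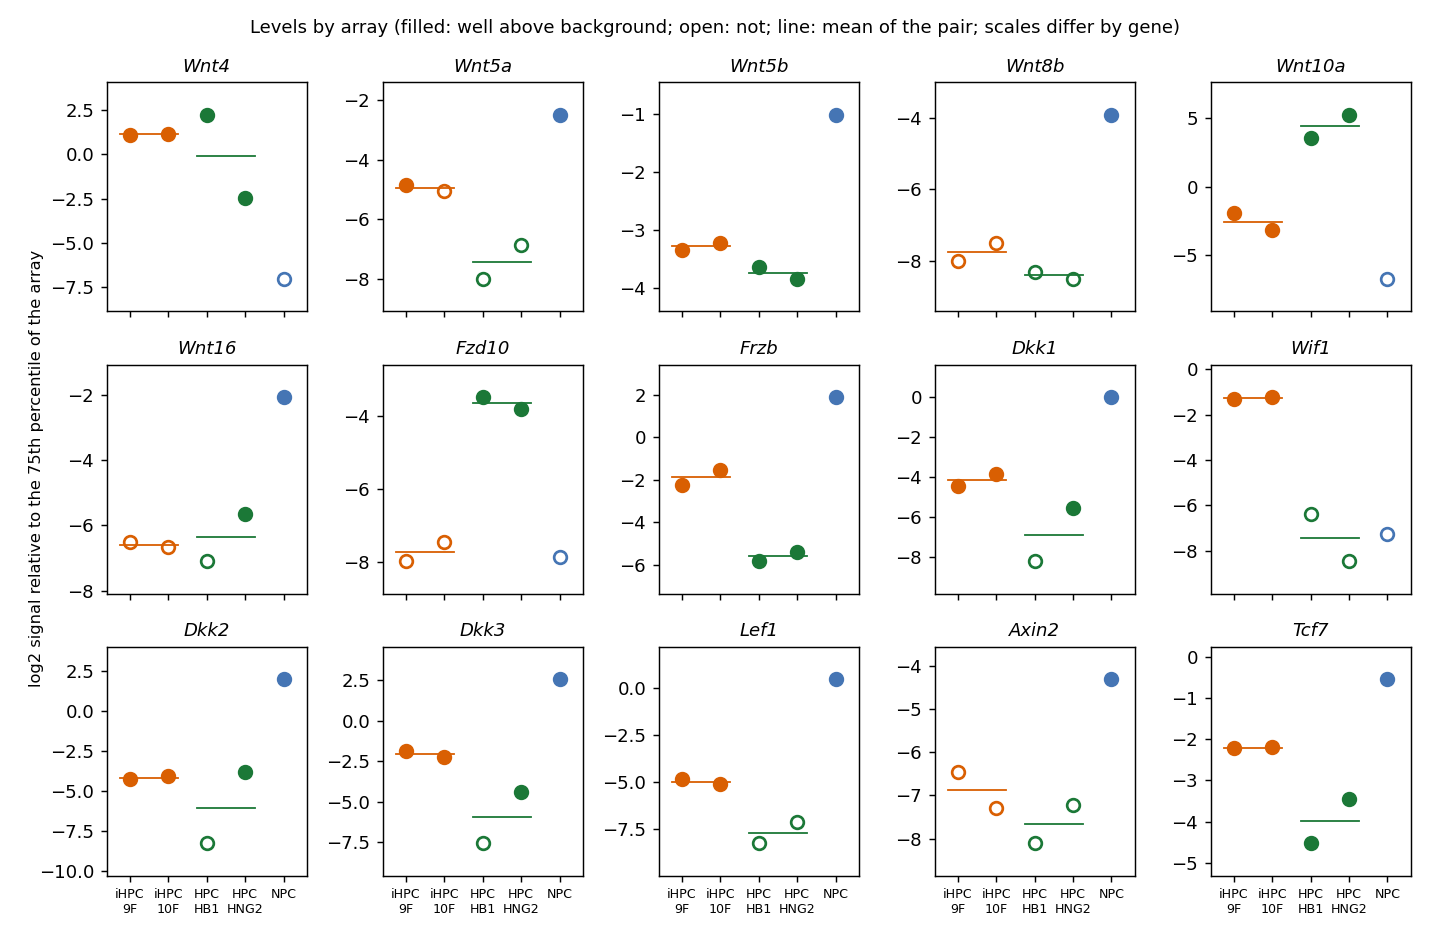
Level on each array (log2 signal relative to the array's 75th percentile) for the 13 genes called in a comparison plus Wnt4 and Dkk2, in the order iHPC 9F, iHPC 10F, HB1, HNG2 and NPC. Filled points are well above background, open points are not, and lines are the means of the iHPC and HPC pairs. Wif1 is filled in iHPC only, Fzd10 in HPC only, and Wnt8b and Axin2 in NPC only.

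The 2 HPC lines differed more from each other than the 2 iHPC lines did, in these genes and over all genes. The median absolute difference over the 35 genes was 0.289 between iHPC 9F and iHPC 10F, beside 0.149 over all genes, and 1.13 between HB1 and HNG2, beside 0.529 over all genes. Over 2 apart were 10 of 35 genes (28.6%) in the HPC pair, against 8.6% of all genes, and 1 of 35 (2.86%) in the iHPC pair, against 0.73%. The 10 were Wnt4, Dkk2, Dkk3, Wnt7a, Sfrp1, Dkk1, Fzd8, Wnt9a, Sfrp4 and Wif1, with HNG2 the higher line in all but Wnt4 and Wif1. HB1 was not well above background for Dkk1, Dkk2, Dkk3, Sfrp1 and Wif1, and HNG2 was not for Wif1, so the size of those gaps is uncertain. With 1 array per line, these gaps have no replicate check. HB1 and HNG2 differ in strain and scan day, whereas the iHPC lines share a parent line and a scan day. Line, strain and scan day cannot be told apart in the HPC gaps. The mesenchymal markers moved with them, since 3 of 10 were well above background in HB1 and 8 of 10 in HNG2, and their part was not tested.

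Pathway genes outside these families were counted from lists. Of 26 genes for Wnt secretion, co-receptors and their regulators, 19 were tested, and relative to NPC 1 rose and 4 fell in iHPC, or 26.3% called, beside 5.64% of all genes. Rspo1, Rspo2 and Sostdc1, among those that fell, passed the background filter through NPC alone. Their calls, and the share that rests on them, are therefore no independent evidence of a difference. Porcn, the enzyme that attaches the lipid to Wnt proteins, was at 1.31 and 1.37 in iHPC, -0.03 and 0.07 in HPC and -0.53 in NPC, a rise of 1.87 ± 0.23 (SE) over NPC (adjusted p = 0.0421). Wls, the carrier that takes Wnt proteins to the cell surface, was at 1.19 and 1.25 in iHPC, 1.5 and 1.26 in HPC and 3.93 in NPC, and it fell by 2.72 in iHPC (adjusted p = 0.0307) and by 2.55 in HPC (adjusted p = 0.0184) on the log2 scale. These 2 genes of Wnt export thus differed from NPC in opposite directions in the induced cells.

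The R-spondins Rspo1 and Rspo2, secreted proteins that strengthen Wnt signalling, were well above background in NPC only. Rspo1 was at least 10.2-fold lower in iHPC and 18.8-fold lower in HPC, and Rspo2 at least 14.9-fold and 27.3-fold lower (adjusted p = 0.0285 for both in iHPC). Sostdc1, a secreted antagonist, was also at background outside NPC and at least 3.41-fold lower in iHPC (adjusted p = 0.035). In HPC against NPC, 2 genes of this list rose and 4 fell, or 31.6% called, beside 15.7% of all genes. Rspo1, Rspo2 and Sostdc1 were again among those that fell, with the same limit on the share. Rnf43, a ubiquitin ligase that removes Frizzled receptors from the membrane and is itself a Wnt target, was at 0.51 and 0.64 in iHPC, 2.11 and 3.1 in HPC and -2.92 in NPC. It rose by 5.52 ± 0.51 in HPC (adjusted p = 0.0168), and its iHPC difference of 3.49 did not pass (adjusted p = 0.0529). Kremen1, a Dkk receptor, rose by 1.43 in HPC (adjusted p = 0.0422). Between iHPC and HPC 1 of 19 was called (5.26%, beside 5.43% of all genes), namely Gpc3, a glypican of fetal liver, which was at 0.36 and -1.02 in iHPC and not well above background in HPC, at least 58.9-fold higher in iHPC (adjusted p = 0.039).

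All 28 listed genes of beta-catenin signal transduction were tested. The shares called, 3.57% for iHPC against NPC, 7.14% for iHPC against HPC and 14.3% for HPC against NPC, are near the 5.64%, 5.43% and 15.7% of all genes. In iHPC against NPC only the co-repressor Tle2 was called, lower by -2.76 (adjusted p = 0.0434). In iHPC against HPC the co-repressor Tle4 fell by 2.15 (adjusted p = 0.0438) and the beta-catenin co-activator Bcl9l by 2.14 (adjusted p = 0.0326). HPC relative to NPC had 4 genes lower, the signal transducer Dvl2 (-2.38), the nuclear factor Tcf7l1 (-2.06), and the beta-catenin co-activators Bcl9 (-1.63) and Pygo1, which was at least 4.26-fold lower. Pygo1 passed the background filter through NPC alone, so its call is no independent evidence of a difference. Of 10 planar cell polarity genes, 1 was called for iHPC against NPC, 1 for iHPC against HPC and 2 for HPC against NPC (10%, 10% and 20%, beside 5.64%, 5.43% and 15.7% of all genes), and Prickle1 was among them each time. It was at -0.56 and -0.54 in iHPC, -2.58 and -2.52 in HPC and 1.85 in NPC, with iHPC between HPC and NPC as for Frzb, Lef1 and Tcf7. Celsr1, an atypical cadherin of the same pathway, rose by 2.53 in HPC relative to NPC (adjusted p = 0.0436). Of 16 common transcriptional targets of beta-catenin 12 were tested, and 0 were called for iHPC against NPC by limma, beside 5.64% of all genes. At an unadjusted p under 0.05 there were 4 of the 12, beside 24.4% of all genes. In each of the other comparisons 1 of the 12 was called (8.33%, beside 5.43% of all genes for iHPC against HPC and 15.7% for HPC against NPC). The median log2 difference of the 12 was 0.37 for iHPC against NPC, -0.27 for iHPC against HPC and 1.02 for HPC against NPC. Over all genes these medians were 0.03, 0.05 and -0.03. Tbx3, a T-box factor of hepatoblasts, fell by 3.34 in iHPC relative to HPC (adjusted p = 0.0375).

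**Figure D4:**
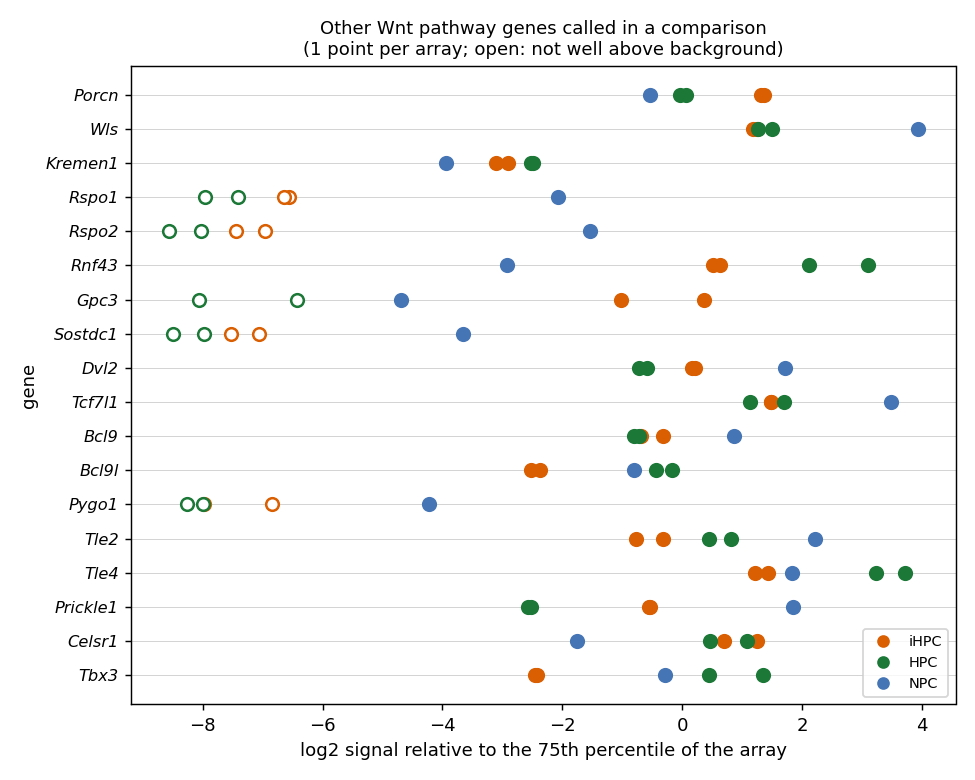
Level on each array (horizontal axis, log2 signal relative to the array's 75th percentile) of the 18 other Wnt pathway genes called in a comparison, 1 point per array, coloured by iHPC, HPC and NPC. Open points were not well above background. Rspo1, Rspo2, Sostdc1 and Pygo1 are filled in NPC only, and Gpc3 is open in HPC only.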

How the data were processed

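RNA of 5 mouse cell lines was labelled with Cy3 from 0.25 µg per sample, per the labels' protocols, and hybridised to one-colour Agilent arrays. The deposited values are spot intensities that Agilent Feature Extraction 10.7.3.1 background-subtracted and detrended, per the file headers. The deposited series matrix holds the same intensities on 100% of spots. Here each array's 75th percentile of non-control spots without outlier flags (590.3 to 1074 in intensity units) was subtracted after log2, and spots of a probe were averaged. Probes were named through RefSeq accession (22951), symbol (6659) or the file (11564). A gene was represented by its brightest probe by mean. Probes were kept where at least 1 group had all of its arrays well above background, which gave 19310 genes. Differences were tested two-sided with limma 3.58.1 in R 4.3.3, in 1 fit of 5 arrays, 3 groups and 2 residual degrees of freedom. P-values were adjusted by Benjamini-Hochberg over all genes. NPC, with 1 array, is assumed to vary like the other groups. The SD across a pair had a median over genes of 0.105 in iHPC and 0.374 in HPC. No source states repeat cultures within a group, so p-values measure the spread within the iHPC and HPC pairs. The iHPC pair shares a parent line and differs in the number of factors. The HPC pair differs in line, strain and scan day. The number of arrays limits the precision. The fit was tested on simulated data. The members, gene lists and tests were chosen with earlier results of these data known. Genes were named where called, or where group means differed by 3 or more, with values on every array. Lists named at most 4 called genes per comparison, and other values were chosen after they were seen. Alternatives were other normalizations, background corrections, filters, probe summaries, models, a scan-day block and left-out arrays. Promoters came from RefSeq, build GRCm38.p6. Figures were drawn with matplotlib 3.10.9. The haematopoietic marker list as a whole is not reported here.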

Additional observations from a re-analysis of the deposited data

Results flagged for a closer look

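For 4 genes the change relative to NPC differed between iHPC and HPC, tested as iHPC minus HPC on the log2 scale. The differences were 3.71 for Frzb, -4.06 for Fzd10, 6.15 for Wif1 and -6.93 for Wnt10a, with limma adjusted p-values of 0.0321, 0.0219, 0.0449 and 0.037. Fzd10 in iHPC and Wif1 in HPC were not well above background, so those differences are bounded by background. The scan days of iHPC and HPC do not overlap, so day and cell type cannot be told apart here.

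Among genes left out of the tests, 3 were well above background on a single HPC array. Sfrp2 was at -6.47 in HNG2, Wnt10b at -3.80 in HNG2 and Wnt8a at -4.90 in HB1, with the other HPC line and the iHPC and NPC arrays not well above background. These signals have no replicate and were not tested.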

How the results depend on the processing

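The 34 gene results recomputed under the alternatives were those called or with a log2 difference of at least 3. None of their 463 values reversed its sign. Several alternatives cannot change a difference, such as the 2-group fit, the intensity trend and the scan-day block, so this was largely fixed in advance. Calls depended on the spread. For iHPC against NPC the 4 called genes became 9 under normexp background correction, beside 7.32% of all genes. With no filter on dim probes they became 0 of 42, beside 1.06% (17 at an unadjusted p under 0.05, limma, beside 15.1%). When all arrays had to be well above background they became 2 of 20, beside 3.26%. With only the 2 groups compared, which here is the same fit as scan day as a fixed block, they became 22, beside 35.0%. The results with an array left out are given with each comparison above. For iHPC against HPC the 4 became 2 of 42 with no filter and 1 of 20 when all arrays had to be, beside 1.6% and 4.09% of all genes. For HPC against NPC the 12 became 7 of 42 with no filter, beside 5.71% of all genes. When all arrays had to be well above background they became 4 of 20, beside 15.5%. With only the 2 groups compared they became 0 of 35, beside 0.0% (15 at an unadjusted p under 0.05, limma, beside 20.1%). They became between 0 and 23 when an array was left out. A floor at the lowest signal well above background, chosen after seeing the data, gave 6, 3 and 12, beside 5.03%, 5.02% and 15.2% of all genes. The counts of 0 came from limma. Leaving out an iHPC array, or fitting HPC and NPC alone, removes the low spread of the iHPC pair from the fit. No gene of any kind was then called, so that loss of calls is not particular to these genes. By contrast, leaving out an HPC array, or the scan-day block, leaves the iHPC pair alone to set the spread.

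Median centring moved the median of all genes from 0.05 to -0.19 for iHPC minus HPC and from -0.03 to 0.26 for HPC minus NPC, and all 4 and 11 of 12 calls were then made again. Scan day as a random block could not be fitted. No paired analysis was possible because replicate numbers here follow accession order and pair no samples. With 2, 2 and 1 arrays, genes near background have only bounded differences.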
